A study of Mus musculus with 6 samples.

Results

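Otx2, Pou3f1 and the Zic genes Zic1, Zic2, Zic4 and Zic5 were taken as 6 named genes linked to primed pluripotency and the first ectoderm, of 21887 protein-coding genes in the gene table. Peaks of 2 histone marks were collected over each gene record of the mouse build GRCm38 and 20 kb on either side of it. The study profiled crotonylated lysine 9 of histone H3 (H3K9cr) and acetylated lysine 9 of histone H3 (H3K9ac) by native chromatin immunoprecipitation, that is, without crosslinking. The cells were P19, a mouse embryonal carcinoma line grown undifferentiated in proliferation medium, with the same cells and medium in both groups. H3K9cr and H3K9ac each had 2 biological replicates, per the series design text, and each library had its own list of peaks, while the 2 input libraries were not analysed here. Each mark rests on a single antibody, so a property of the antibody and of the mark cannot be told apart, and no RNA was measured.

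Both marks are acylations of the same lysine that lie at active promoters and enhancers, and crotonyl-lysine is bound by YEATS domain proteins and by double PHD finger proteins. Pluripotent cells pass from a naive state, like that of the early inner cell mass, to a primed state, like that of the epiblast before gastrulation. The homeodomain factor Otx2 and the POU factor Pou3f1 (also called Oct6) direct this transition in mouse cells, and both act again in the anterior neural plate. Zic proteins are zinc finger factors of the neural plate, neural crest and dorsal neural tube. The Zic genes examined here lie as neighbours in pairs, Zic1 with Zic4 and Zic2 with Zic5.

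The 4 lists held 28360 and 28345 peaks for H3K9cr and 26096 and 27474 peaks for H3K9ac. The sources used here give no read depth. Sequencing depth and signal both set how many peaks a list holds and how wide they are, and cannot be told apart here. The height of a peak is given as the percentile of its summit pileup (read coverage) among all peaks of the same list, since pileup was not on a known common scale. As a check of the cell label, the pluripotency genes Pou5f1, Sox2 and Nanog had a peak within 1 kb of an end in all 4 libraries. The Nanog peak was low, at mean percentile 37.5, and the liver gene Alb had a peak in 0 libraries. This check is weak, since 61.5% of protein-coding genes had such a peak in every library, and it does not tell the marks apart.

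The RefSeq promoter table (GRCm38.p6) matched 4 of the 6 genes, Otx2, Zic1, Zic4 and Zic5. The 250 bases before the start site are shown for these genes because the peaks lie over most of them and stop short of one. They are written 5′ to 3′ on the strand of the gene, with matches to the searched motifs in capitals. Otx2 is given for its most upstream start and for an inner start, 1 of its 4 listed starts. The inner start shown is the one whose window held the Otx homeodomain word TAATCC. Of the Otx2 windows not shown, that of listed start 2 held CCAAT and that of listed start 4 held no searched motif.
Otx2, most upstream start: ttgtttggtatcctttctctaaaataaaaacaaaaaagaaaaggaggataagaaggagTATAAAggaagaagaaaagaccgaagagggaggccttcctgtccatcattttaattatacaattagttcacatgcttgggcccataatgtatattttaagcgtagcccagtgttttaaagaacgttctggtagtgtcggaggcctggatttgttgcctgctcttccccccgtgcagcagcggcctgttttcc
Otx2, inner start: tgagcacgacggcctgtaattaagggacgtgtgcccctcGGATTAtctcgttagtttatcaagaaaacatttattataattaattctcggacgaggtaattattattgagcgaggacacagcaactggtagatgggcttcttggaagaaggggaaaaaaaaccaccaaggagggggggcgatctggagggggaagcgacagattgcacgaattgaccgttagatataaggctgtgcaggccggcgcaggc
Zic1: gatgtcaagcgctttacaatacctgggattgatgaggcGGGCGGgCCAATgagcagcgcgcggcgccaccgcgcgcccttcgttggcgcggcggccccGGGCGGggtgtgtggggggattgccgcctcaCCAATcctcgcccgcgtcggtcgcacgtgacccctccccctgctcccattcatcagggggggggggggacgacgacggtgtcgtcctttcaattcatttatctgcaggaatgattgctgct
Zic4: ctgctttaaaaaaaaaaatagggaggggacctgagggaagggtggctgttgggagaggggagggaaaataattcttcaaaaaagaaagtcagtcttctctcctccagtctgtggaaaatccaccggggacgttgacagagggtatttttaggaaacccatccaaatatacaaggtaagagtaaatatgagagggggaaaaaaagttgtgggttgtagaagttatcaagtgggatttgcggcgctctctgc
Zic5: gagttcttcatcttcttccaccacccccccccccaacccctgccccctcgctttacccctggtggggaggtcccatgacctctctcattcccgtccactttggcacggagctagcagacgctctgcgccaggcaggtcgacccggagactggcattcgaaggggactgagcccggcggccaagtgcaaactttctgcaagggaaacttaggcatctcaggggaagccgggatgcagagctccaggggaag

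These promoters differed in composition. The Zic1 window (chr9:91365769-91366018, minus strand) held 27 CpG dinucleotides at 66.0% G and C, above the medians of 6 and 52.4% over the 32851 promoters of the table. The Zic5 window (chr14:122465659-122465908, minus strand) held 11 CpG at 62.4%. The Zic4 window (chr9:91368722-91368971, plus strand) held only 4 at 44.4%. At Otx2 the most upstream window (chr14:48667645-48667894, minus strand) held 6 CpG at 42.0%, and the window of the inner start (chr14:48665110-48665359) held 14 at 48.4%.

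Motifs were searched on both strands as fixed letters, with no overlap between matches. TATAAA, the TATA box, was found 192 bases before the most upstream Otx2 start and occurs in 12.4% of all promoters of the table. The Otx homeodomain word TAATCC, found in 6.25% of all promoters, matched on the opposite strand 211 bases before the inner Otx2 start, where it reads GGATTA. All 4 Otx2 windows were searched, whereas that share is per single window. Zic1 held CCAAT at 205 and 121 bases and the GC box GGGCGG at 212 and 152 bases before its start, words found in 33.8% and 32.7% of promoters. The octamer ATGCAAAT (1.60% of promoters), the Sox word CATTGTT (3.29%) and the Zic word CAGCAGG (8.44%) were not in any of these windows.

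All 6 genes carried both marks as broad peaks. Each had a peak within 1 kb of its 5′ end in every library (for Pou3f1 and Zic2, within 1 kb of either end of the gene record), whereas 61.5% of protein-coding genes had one at either end in every library. Zic1 and Zic4 shared one peak, so the 6 genes had 5 peaks. In width these stood between the 98.4th and the 99.97th percentile of all peaks of their lists. The mean width percentile was at least 95 for 6 of 6 genes, against 9.81% of the 13462 genes with a peak at an end in every library. Genes that share a peak are each counted in that background.

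**Figure D1:**
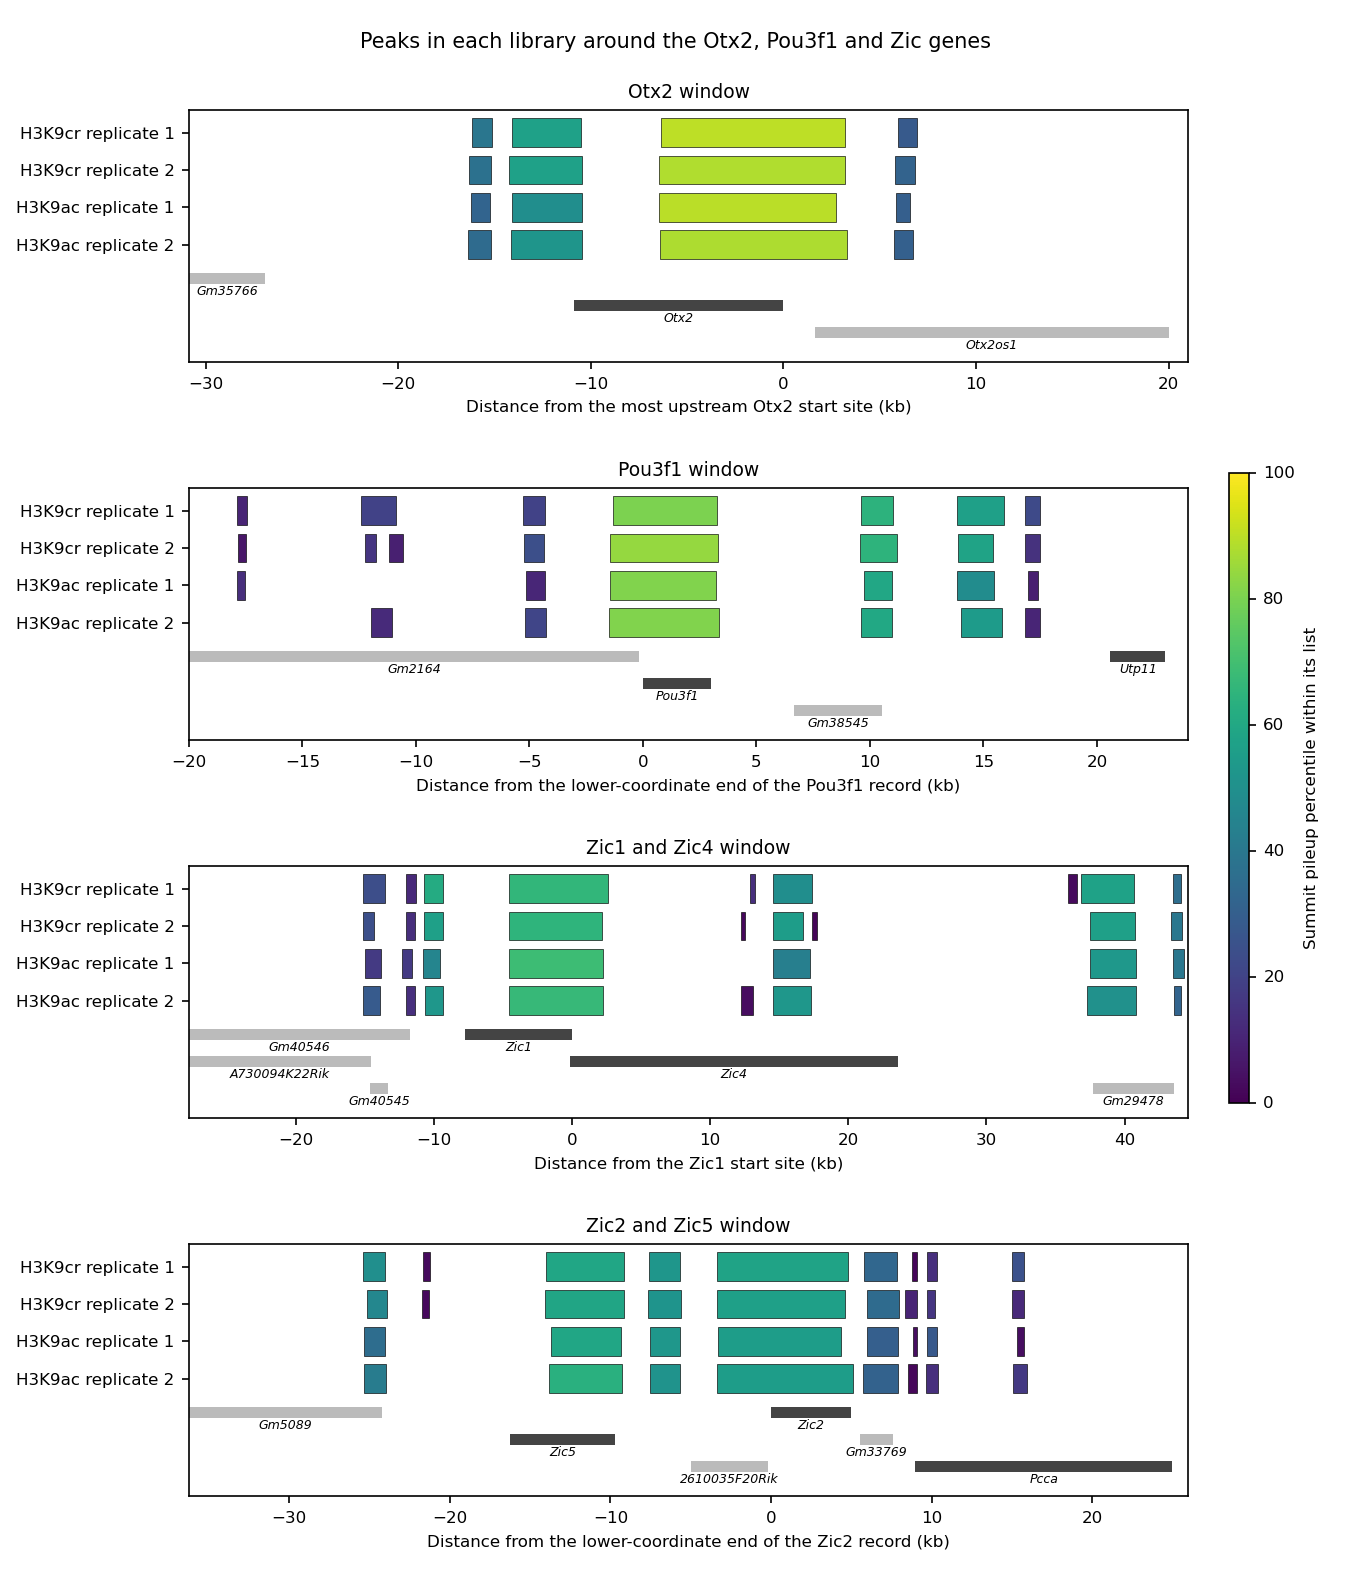
Peaks of each library (rows, H3K9cr above H3K9ac) in the 4 windows, against distance in kb from a start site or record end, with boxes coloured by summit pileup percentile and gene records drawn below (dark for protein-coding, light for long noncoding). One broad peak lies over Otx2, Pou3f1, the Zic1 and Zic4 junction, Zic2 and Zic5 in all 4 libraries, with smaller peaks around it.

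Otx2 had the broadest of these peaks. Its width was 9547 and 9653 bp in the H3K9cr libraries, against 9227 and 9744 bp in the H3K9ac libraries. Only 13 and 15 peaks of the H3K9cr lists and 8 and 8 peaks of the H3K9ac lists were longer. By mean width, 10 of 13462 genes, Otx2 included, had an end peak at least as wide. The groups overlapped, and the means of 9600 ± 75.0 bp for H3K9cr and 9485.5 ± 366 bp for H3K9ac did not differ past the exact two-sided permutation test (p = 1, SD, n = 2 each).

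The Otx2 peak was also high. Coverage at its summit was a pileup of 301 and 296 in the H3K9cr libraries, against 222 and 326 in the H3K9ac libraries. Its summit pileup stood at percentile 90.0 and 88.3 in the H3K9cr libraries and 89.8 and 87.7 in the H3K9ac libraries, and the groups overlapped. The merged region (chromosome 14, 48661163 to 48670951) held all 4 listed Otx2 starts and covered 58.6% to 59.7% of the gene record (chromosome 14, 48656781 to 48667644). It ran on past the most upstream start into Otx2os1, a long noncoding RNA record that begins at 48669288. The summit lay 934 and 940 bp (H3K9cr) and 937 and 1366 bp (H3K9ac) inside the gene, measured from the most upstream start.

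Among all peaks of the lists, Pou3f1 combined a broad with a fairly high peak, which spanned its whole 3010 bp record (chromosome 4, 124657646 to 124660655). Width was 4571 and 4748 bp in the H3K9cr libraries, against 4681 and 4850 bp in the H3K9ac libraries. Summit pileup was 217 and 259 for H3K9cr and 166 and 259 for H3K9ac. The summit stood at percentile 80.2 and 84.4 for H3K9cr and 80.9 and 80.9 for H3K9ac. Both measures overlapped between the marks, with a width difference of -106 bp (H3K9cr minus H3K9ac, exact two-sided permutation p = 0.667, n = 2 each). The peak also reached the end of Gm2164, a long noncoding RNA record that ends at 124657487, and 365 of 13462 genes, Pou3f1 included, had an end peak at least as wide.

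At Zic1 and Zic4 the marks covered the junction between both records. The peak measured 7163 and 6727 bp in the H3K9cr libraries, against 6805 and 6759 bp in the H3K9ac libraries. It covered 58.6% to 58.9% of the Zic1 record (chromosome 9, 91358058 to 91365768). The Zic4 record (chromosome 9, 91365631 to 91389351) begins inside this peak, which covered 9.89% to 11.6% of it. The Zic4 start site of the promoter table lay outside the peak, 586 and 995 bp beyond its edge in the H3K9cr libraries and 945 and 966 bp beyond it in the H3K9ac libraries. The Zic4 promoter printed above is thus the one among those shown with no peak over it in any library.

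In height the Zic1 and Zic4 peak stood somewhat above the middle of all peaks of the lists. Among genes with an end peak in every library it stood lower, at the 34.5th percentile. Summit pileup was 131 and 127 in the H3K9cr libraries, against 112 and 159 in the H3K9ac libraries. Its summit was at percentile 65.9 and 65.0 for H3K9cr and at 68.7 and 67.2 for H3K9ac. Both H3K9cr libraries thus lay below both H3K9ac libraries, which held for 8.92% of the 13462 genes, while the reverse held for 31.8%. The difference was -2.44 percentile points, with an exact two-sided permutation p of 0.333, the smallest that 2 libraries against 2 allow. The summit lay 1232 and 1164 bp (H3K9cr) and 1210 and 1079 bp (H3K9ac) inside Zic1.

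Zic2, needed for forebrain midline development, had a very broad peak. Its height was middling among all peaks of the lists but low among genes with an end peak (21.3rd percentile). Width was 8169 and 8003 bp in the H3K9cr libraries, against 7626 and 8479 bp in the H3K9ac libraries, and 21 of 13462 genes, Zic2 included, had an end peak at least as wide. Summit pileup was 93.9 and 87.5 in the H3K9cr libraries, against 69 and 96.6 in the H3K9ac libraries, only at percentile 58.0 and 56.4 for H3K9cr and 55.4 and 55.2 for H3K9ac. Both H3K9cr libraries lay above both H3K9ac libraries in height, by 1.85 percentile points on average (exact two-sided permutation p = 0.333, n = 2 each). The same order held for 31.8% of the 13462 genes. The region (chromosome 14, 122471998 to 122480481) covered 87.8% to 100% of the Zic2 record (chromosome 14, 122475384 to 122480328) and the near end of 2610035F20Rik, a long noncoding RNA record that ends at 122475199.

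Zic5, known for a role in neural crest formation, had, on average, the narrowest of the broad peaks and a width gap between the marks. Width was 4865 and 4919 bp in the H3K9cr libraries, against 4359 and 4518 bp in the H3K9ac libraries, and the groups did not overlap. The difference of 453.5 bp had the smallest p that the design allows (exact two-sided permutation p = 0.333, n = 2 each). End peaks were wider in both H3K9cr libraries than in both H3K9ac libraries at 34.4% of the 13462 genes, and narrower at 4.21%. In bp, Zic5 had the only such gap among the 5 peaks. Ranked within their own lists, the widths of both H3K9cr libraries lay above those of both H3K9ac libraries at Zic5 as well, by 0.27 percentile points on average, as at 19.6% of the 13462 genes. By that rank both H3K9cr libraries lay below both H3K9ac libraries at Otx2 (difference -0.019 percentile points), Pou3f1 (-0.39) and Zic2 (-0.031), as at 14.2% of genes, and overlapped at Zic1 and Zic4. Each of these 4 gaps has an exact two-sided permutation p of 0.333, and the ranking was added after the values were seen. Summit pileup at Zic5 was 99.5 and 96.7 for H3K9cr and 80 and 137 for H3K9ac. The Zic5 summit stood at percentile 59.4 and 58.7 for H3K9cr and 59.4 and 63.4 for H3K9ac.

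**Figure D2:**
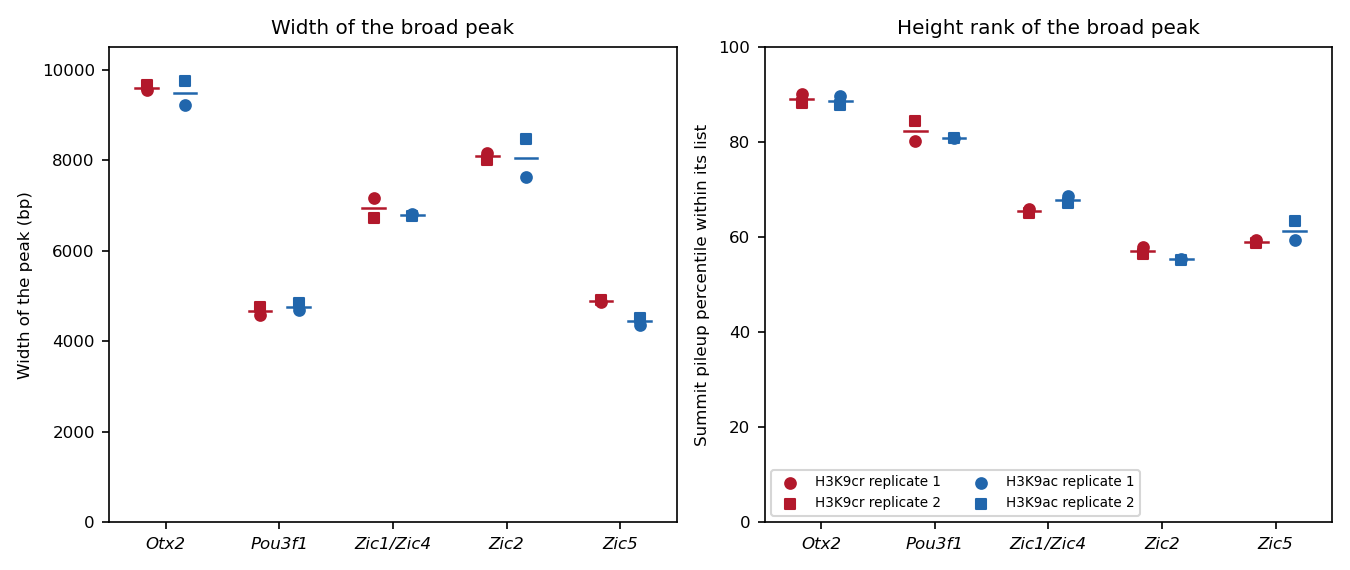
Width in bp (left) and summit pileup percentile (right) of the broad peak at each gene, with 1 point per library, H3K9cr left of H3K9ac, and a bar at the mean of 2. Otx2 is the widest in all libraries (9227 to 9744 bp) and the highest (87.7 to 90.0), and in bp only at Zic5 do the widths of the marks not overlap (by width percentile they also do not at Otx2, Pou3f1 and Zic2, where H3K9ac is higher).

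Width and height came apart within the group. The height percentiles above are among all peaks of a list. The 13462 genes with an end peak in every library were also ranked by mean height percentile. In that ranking Otx2 stood at the 75.9th percentile and Pou3f1 at the 60.6th. Zic1 and Zic4 stood at the 34.5th, Zic5 at the 25.9th and Zic2 at the 21.3rd. Among peaks of their own list whose width was within 10% of theirs (a comparison chosen after the values were seen), the Otx2 peak had a higher pileup than 50% to 70% of 8 to 12 peaks, and Pou3f1 than 43.8% to 52.6% of 258 to 363 peaks. The Zic peaks were low for their width. Zic1 and Zic4 exceeded 13.8% to 20% of 56 to 92 such peaks, Zic5 11.3% to 17.02% of 284 to 376, and Zic2 only 6.67% to 14.3% of 19 to 42. In all 4 libraries each Zic peak lay below this share for Otx2 and for Pou3f1.

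**Figure D3:**
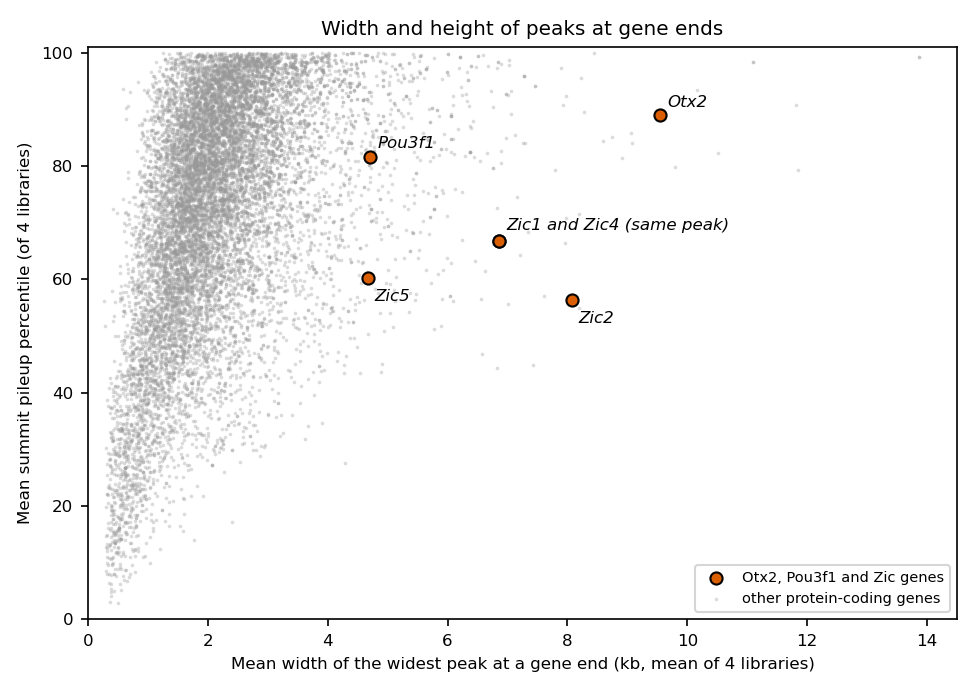
Mean width in kb of the widest peak at an end of each protein-coding gene against its mean summit pileup percentile over 4 libraries, for the 6 genes (orange, Zic1 and Zic4 on one point) and all other genes with a peak in every library (grey). The Zic genes lie to the right of and below most other genes, with Zic2 at 8069 bp and percentile 56.3.

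Summits lay on both sides of a distance of 1 kb from the gene ends, with 9 of 24 gene and library pairs within it. In a comparison also chosen after the values were seen, a summit within 1 kb of an end in every library was found for 0 of 6 genes, compared with 84.1% of the 13462 genes, and with 58.4% of the 1321 genes with a mean width percentile of at least 95. The distance from the summit to the nearest record end was 934 to 1366 bp at Otx2, 671 to 1138 bp at Pou3f1, 1079 to 1232 bp at Zic1, 942 to 1095 bp at Zic4 and 2105 to 2667 bp at Zic5. At Zic2 the H3K9cr libraries gave 378 and 2134 bp and the H3K9ac libraries 459 and 439 bp, so that 1 of 4 libraries placed the summit elsewhere in the same broad peak.

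Peaks filled much of the windows around the genes. Peaks covered 29.8% and 30.8% of the Otx2 window in the H3K9cr libraries, against 28.5% and 30.7% in the H3K9ac libraries. The Zic2 window was covered to 41.7% and 42.2% for H3K9cr and to 37.9% and 42.7% for H3K9ac, and the overlapping Zic5 window to 42.6% and 43.0% for H3K9cr and 38.5% and 42.1% for H3K9ac. Mean cover was 24.6% for Pou3f1, 27.5% for Zic1 and 26.5% for Zic4. The median over 16259 genes with a peak in the window in every library was 4.96%, and the 6 genes stood between its 98.1st and 99.8th percentile.

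Covered length did not differ between the marks past the threshold at any of the 6 genes. It was centred on the median of each library, fitted over 16259 genes with limma and adjusted by Benjamini and Hochberg at 0.05. Of all genes 0 passed (0%), while 1264 (7.77%) had an unadjusted p under 0.05, of which 1120 (6.89% of all genes) were covered more by H3K9cr. Without centring these numbers were 1849 of 1864. Of the 6 genes 0 passed, with limma adjusted p from 0.627 to 0.957, and 1, Pou3f1, had an unadjusted p under 0.05.

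The Pou3f1 window differed by 1156.5 ± 449 bp (standard error, H3K9cr minus H3K9ac), from centred values of 7954 and 7127 bp in the H3K9cr libraries and 5842 and 6926 bp in the H3K9ac libraries, which do not overlap (limma unadjusted p = 0.0463, adjusted p = 0.627). With 10 kb on either side of the gene in place of 20 kb, the Pou3f1 difference was -54 bp. Centred values did not overlap at Zic5 either, with 16101 and 16177 bp in the H3K9cr libraries and 14552 and 15936 bp in the H3K9ac libraries. Both H3K9cr libraries lay above both H3K9ac libraries in this way at 2 of 6 genes, against 17.9% of the 16259 genes, and below them at 0 of 6, against 26%. The differences were 91 ± 329 bp for Otx2, -95 ± 560 bp for Zic1, 416.5 ± 899 bp for Zic4, 486 ± 586 bp for Zic2 and 895 ± 455 bp for Zic5. Without H3K9cr replicate 2, Pou3f1 (1573 bp, limma adjusted p = 0.00682) and Zic4 (1806 bp, limma adjusted p = 8.45e-04) passed together with 473 genes in all. That fit has 1 H3K9cr library, which is assumed to vary like the others, and without H3K9cr replicate 1 the Zic4 difference was -968 bp.

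Around the broad peaks lay smaller sites, most of them common to both marks. The windows held 29 merged regions. Every library had a peak in 24 of them (82.8%, against 73.8% of all 31127 regions). All 4 Otx2 regions, 5 of 7 at Pou3f1, 7 of 9 at Zic1 and Zic4, and 8 of 9 at Zic2 and Zic5 were shared in this way. The 5 regions missing from a list were weak, at percentile 19.8 or below in every list that held them. One of them, 4995 bp from the Zic5 record (chromosome 14, 122453656 to 122454165), was listed in both H3K9cr libraries, at percentile 2.47 and 2.01, and in neither H3K9ac library, as were 2.57% of all regions. Regions with H3K9ac alone in both replicates numbered 0, and made up 0.28% of all regions.

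Distal sites, defined as regions more than 1 kb from every end of a protein-coding gene record, numbered 20 of the 29, against 55.7% of all regions. Of the 24 regions with a peak in every library 15 were distal, against 43.7% of all such regions. Each of the 6 windows, which lie at 4 loci, held at least 2, compared with 13.4% of protein-coding genes. At least 1 was held by 33.9% of protein-coding genes, and windows differ in length with the gene. At Zic4 there were 6, a number reached by 0.480% of genes, at Pou3f1 and Zic1 4 each (2.12% of genes), and at Otx2, Zic2 and Zic5 2 each (13.4%). Regions in the overlapping Zic windows are counted for both neighbours.

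The distal sites were of ordinary height. Their mean percentile ranged from 13.8 to 62.2 with a median of 36.7, beside a median of 38.6 for all 10043 distal regions found in every library, and 7 of 15 lay above that median. Their length had a median of 1505 bp against 1147 bp, and 10 of 15 were longer than the median distal region. In mean percentile over libraries the strongest distal site stood at 35.7 in the Otx2 window, where the broad peak stood at 89.0, and at 62.2 in the Pou3f1 window, where it stood at 81.6. In the Zic1 and Zic4 window these values were 54.3 and 66.7. In the window of Zic2 and Zic5 the strongest distal site stood at 52.1, near the broad peaks of Zic2 at 56.3 and Zic5 at 60.2.

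At Otx2 the distal sites were 2 regions of ordinary length (1260 and 1183 bp). They stood at the 56.5th and 52.1st percentile of length among distal regions of every library. One lay 4280 bp beyond the 3′ end of the gene (chromosome 14, 48651242 to 48652501), at percentile 39.3 and 37.2 for H3K9cr and 31.8 and 34.4 for H3K9ac. The other lay within the Otx2os1 record, 5758 bp upstream of the first Otx2 start (48673402 to 48674584), at 27.9 and 31.4 for H3K9cr and 29.7 and 30.1 for H3K9ac. A broad region over the 3′ end of Otx2 (48653375 to 48657174) was not distal and was 3552 to 3792 bp wide, with percentiles of 56.8 and 57.0 for H3K9cr and 49.1 and 52.2 for H3K9ac.

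Beside Pou3f1 the strongest distal site overlapped the end of Gm38545, a long noncoding RNA record (chromosome 4, 124667224 to 124668835). It stood at percentile 64.4 and 64.8 for H3K9cr and 59.7 and 60.0 for H3K9ac. A site between Gm38545 and Utp11 (124671475 to 124673533) had percentiles of 56.5 and 58.0 for H3K9cr and 48.1 and 54.3 for H3K9ac. At both sites the H3K9cr libraries lay above the H3K9ac libraries, as at 38.9% of all regions with a peak in every library. The 2 remaining shared sites were weak, at 8.28 to 24.02 in all libraries.

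The Zic1 and Zic4 window held the broadest distal sites. A region of 3198 bp inside the Zic4 record (chromosome 9, 91380319 to 91383516) stood at percentile 49.2 and 55.1 for H3K9cr and 42.7 and 53.0 for H3K9ac. A region of 3997 bp at the end of the long noncoding RNA record Gm29478 (91402595 to 91406591), 13244 bp beyond Zic4, stood at 57.5 and 56.4 for H3K9cr and 53.3 and 50.2 for H3K9ac. Among distal regions of every library these lay at the 96.0th and 98.4th percentile of length. Beyond the 3′ end of Zic1 by 1589 bp, another site (91354965 to 91356469) stood at 60.9 and 56.6 for H3K9cr and 45.6 and 53.0 for H3K9ac.

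Between Zic5 and Zic2, a region of 2022 bp (chromosome 14, 122467735 to 122469756) lay 2077 bp from Zic5 and 621 bp from the 2610035F20Rik record, at percentile 52.4 and 51.6 for H3K9cr and 52.9 and 51.4 for H3K9ac. The near end of the record of the metabolic gene Pcca, in the same window, carried weak peaks, at 1.18 to 10.1 in the 4 libraries (122483705 to 122484490). A second region 678 bp from that end (122485043 to 122485748) stood at 13.5 and 15.6 for H3K9cr and 27.5 and 13.6 for H3K9ac. Of the 15 distal sites found in every library, 7 were no more than 1 kb from where a noncoding gene record ends or begins, and 5 overlapped such a position. The share among all 10043 distal regions of every library was not computed. These counts therefore do not show whether such closeness is unusual.

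**Figure D4:**
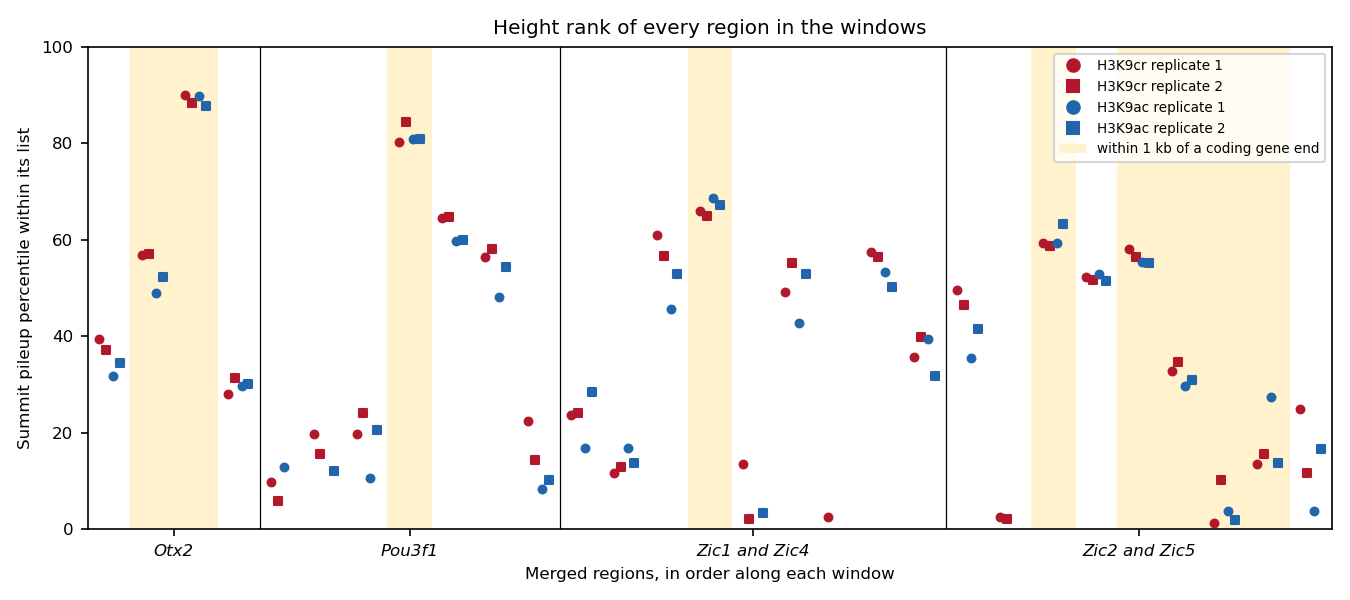
Summit pileup percentile in each library (points, H3K9cr left of H3K9ac) for the 29 merged regions in order along each window, with regions within 1 kb of a protein-coding gene end shaded. Otx2 and Pou3f1 have 1 region above the rest, whereas in both Zic windows several regions lie between 40 and 70.

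Height ranks of these regions were compared between the marks as normal scores in limma over all 22972 regions with a peak in every library. Of these 0 passed at an adjusted p of 0.05 (0%), 2368 (10.3%) had an unadjusted p under 0.05, and 2217 (9.65%) of all were higher for H3K9cr at that level. The median difference over all regions was 0.07 normal score units (H3K9cr minus H3K9ac). The H3K9cr lists are also the longer ones. With equal numbers of peaks per list the median difference was 0.00687, and 1128 of the 1743 regions at an unadjusted p under 0.05 were higher for H3K9cr. Among the 24 regions of the Otx2, Pou3f1 and Zic windows 0 passed (limma adjusted p from 0.419 to 0.984), and 2 had an unadjusted p under 0.05.

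These were the weak site 3095 bp from Utp11 in the Pou3f1 window (0.41 ± 0.12, unadjusted p = 0.0209) and the site at the end of Gm5089 in the Zic5 window (122449986 to 122451499, 0.24 ± 0.09, unadjusted p = 0.0358; both limma, differences with standard errors). Both H3K9cr libraries ranked above both H3K9ac libraries at 10 of 24 regions (41.7%), against 38.9% of all regions, and below them at 2 (8.33%), against 6.46%. These shares were thus near those of all regions. Leaving out H3K9ac replicate 2 raised the number of regions called in the whole table to 708, in a fit with 1 H3K9ac library.

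Family relatives of these genes had lower peaks. Otx1, a brain homeodomain gene, had an end peak with a mean width of 5891 bp but a mean percentile of 51.8, and Pou3f2, a neuronal POU factor, one of 3897.5 bp at 34.7. Pou3f3 (1743.5 bp, 31.0) and Pou3f4 (1487.5 bp, 33.1), which act in the nervous system and the inner ear among other tissues, were below the median width of 2011 bp over all occupied genes. Crx, the photoreceptor gene of the Otx family, had a peak at an end or within the record in 0 libraries. The 4 relatives with an end peak lay below all 6 genes in mean height percentile. In width 2 of these 4 were also broad, Otx1 at mean width percentile 99.4 and Pou3f2 at 96.0. In bp Otx1 was wider than Pou3f1 and Zic5.

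Among 3 lists of developmental genes, those of primed pluripotency had the highest medians in width and in height. A peak at an end in every library was found at 9 of 10 of them, with a median width of 3951.5 bp and a median percentile of 70.8, against 2011 bp and 76.1 over all occupied genes. The pluripotency factor gene Foxd3 was the widest at 7971.5 bp (percentile 70.8) and Fgf5, the classical epiblast growth factor, the narrowest and lowest (1772 bp, 53.7). Grhl2, an epithelial transcription factor, was the highest at 86.6. Dnmt3a, a de novo DNA methyltransferase, had an end peak in 0 libraries but 6 to 7 peaks within the record.

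Early ectoderm genes were occupied at 11 of 12, with a median width of 2747.5 bp and a median percentile of 40.2. Sox3, an early neural SoxB1 gene, was the widest (6560 bp, percentile 56.5), and Hesx1, a pituitary and forebrain homeobox gene, the narrowest (1016 bp). The Wnt modulator Sfrp2 was the highest at 80.5 and Pax6 the lowest at 29.8. Fezf1, a forebrain zinc finger gene, had an end peak in 3 of 4 libraries. Naive pluripotency genes had one in every library at 6 of 10, with medians of 2016 bp and 50.995. Klf4 was the widest and highest of these (5418 bp, 77.7) and Dppa3 the narrowest and lowest (688.5 bp, 24.5).

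The naive genes without an end peak in every library were Esrrb, Prdm14, Tcl1 and Zfp42. Esrrb had one in 0 libraries but 2 peaks within the record in each, Tcl1 had none of either kind in any library, Prdm14 had one in 2 and Zfp42 in 1. The mean width percentile was at least 95 at 5 of the 9 occupied primed genes and 4 of the 11 ectoderm genes. It was so at 2 of the 6 naive genes and at 2 of the 4 occupied family relatives (Otx1 and Pou3f2). For the Otx2, Pou3f1 and Zic genes the count was 6 of 6. These counts carry no test, since the lists were chosen with results of these data known.

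**Figure D5:**
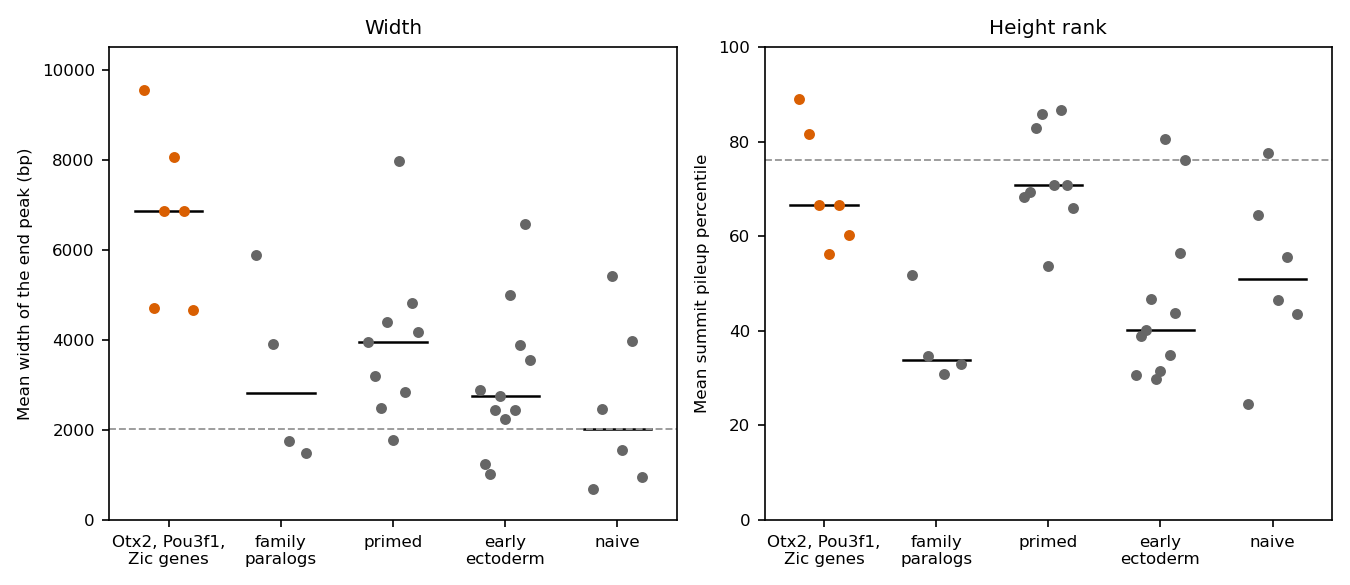
Mean width in bp (left) and mean summit pileup percentile (right) of the widest end peak, 1 point per gene with a peak in every library, a bar at each median and a dashed line at the median of all occupied genes. The Otx2, Pou3f1 and Zic genes have a median width of 6864 bp, above the medians of the 4 other lists. Their median percentile is 66.7, below that of all occupied genes (76.1).

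The genes most like each member were taken by the summed difference in width and height percentile over 4 libraries, in percentile points. Width percentiles lie close together near the top of a list, so matched genes can differ in bp. Mean widths are given beside the sums. Otx2 (9543 bp) was nearest to Fzd2 (3.01, 6059 bp), Zfp608 (3.76, 8279 bp) and Sall4 (5.46, 6418 bp), the last a pluripotency zinc finger gene. All of these were narrower than Otx2 in bp. Pou3f1 (4712.5 bp) was nearest to Zhx2 (4.75, 4456 bp) and to Gm51579 and Otud4, which have the same values (6.61, 4786 bp). Zic1 and Zic4 were nearest to each other by their common peak (6863.5 bp), then to Adamts9 (7.80, 5162 bp) and Myc (8.04, 5533.5 bp). Zic2 (8069 bp) was nearest to Skida1 (2.79, 6093 bp), Gata6 (7.04) and Meis2 (8.0002). Of these, Gata6 (7000 bp, percentile 55.7) encodes an endoderm and heart factor and Meis2 (8188 bp, 55.0) a homeobox cofactor. Zic5 (4665 bp) was nearest to the Wnt receptor gene Fzd10 (8.37, 5147 bp), then to Adgrl1 (10.1, 5720.5 bp) and Cdk6 (10.2, 4705 bp).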

How the data were processed

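Native chromatin immunoprecipitation of H3K9cr and H3K9ac from P19 cells gave 2 libraries per mark, grouped by their labels. The submitters' processing notes name the aligner Bowtie2 (2.4.1), the peak caller MACS2 (2.2.7.1) and the build GRCm38, with no options. The authors deposited 1 peak list per library. Per the file headers, the pileup column is coverage signal where the peak is highest, fold enrichment is a ratio to local background, and the -log10 p-value and -log10 q-value are the peak caller's. Replicates were not pooled, and sites below the caller's threshold are not listed, so no peak does not mean no signal.

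Peaks of all libraries that overlapped by at least 1 bp were merged into regions. Positions were counted from 1 and compared with gene records of RefSeq GRCm38.p6. The end peak of a gene is the widest peak within 1 kb of either end of its record. Gene windows and height ranks were compared in R 4.3.3 by limma (3.58.1) at a Benjamini-Hochberg adjusted p of 0.05, and single widths and percentiles by exact permutation of 2 libraries against 2. Other steps used scipy 1.17.1, pandas 2.3.3 and numpy 2.4.6 under Python 3.11.15. Merging, overlaps and the limma fits were tested on simulated data. The changes planted for limma were large against the spread between libraries, so they do not show power at the differences seen here.

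All 6 members were named, with their family paralogs, the extremes and absentees of 3 gene lists, and the 3 genes most like each member. The members and lists were chosen with earlier results of these data known. Alternatives were a stricter q, equal numbers of peaks, other windows and merging, ranks by fold enrichment, width percentiles (added after the values were seen), no centring, a replicate block and each library left out.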

Additional observations from a re-analysis of the deposited data

How the results depend on the processing

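Presence of both marks kept its value under most settings. The count of 6 genes with a peak at the 5′ end in every library was unchanged by a stricter q (-log10 q of at least 10), by equal numbers of peaks (26096 per list), by 2.5 kb around an end and by leaving out any library, but was 0 when the summit itself had to lie within 1 kb. Regions found in every library ranged from 18 of 24 (stricter q) to 30 of 42 (window of 50 kb), beside 24 of 29 in the main setting. Distal ones ranged from 10 of 12 (window of 10 kb) to 18 of 30 (window of 50 kb), beside 15 of 20. The share over all regions was computed for the main setting only, so whether the excess over it holds in other settings was not tested. With the stricter q, mean height percentiles fell to 86.7 for Otx2, 77.8 for Pou3f1, 59.8 for Zic1 and Zic4, 47.3 for Zic2 and 52.0 for Zic5, since weak peaks leave the ranking. With equal numbers of peaks they were 64.8 for Zic1 and Zic4, 53.8 for Zic2 and 57.9 for Zic5. Ranked by fold enrichment they were 87.8 for Otx2, 60.6 for Zic2 and 64.7 for Zic5.

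Differences between marks were not stable in sign. Leaving out 1 library gave width differences (H3K9cr minus H3K9ac) of -144 to 373 bp at Otx2, -55 to 381 bp at Zic1 and Zic4, and -393 to 460 bp at Zic2, while the sign held at Pou3f1 and Zic5. As percentiles of width within a list, a setting chosen after seeing the data, the differences were -0.01945 at Otx2, -0.0496 at Zic1 and Zic4 and -0.0305 at Zic2, against positive differences in bp. With 1 library left out, the difference in covered length of the window ranged from -318 to 501.5 bp at Otx2 and -901 to 716 bp at Zic1. It ranged from -432.5 to 1406 bp at Zic2 and -968 to 1806 bp at Zic4. It was -54 bp at Pou3f1, 106.5 bp at Zic1 and -89.5 bp at Zic4 with a window of 10 kb, and 161.25 bp at Zic1 and -33.25 bp at Zic4 with 50 kb. The stricter q gave -112.25 bp at Zic2, -369.25 bp at Zic4 and -6.75 bp at Zic5, equal numbers of peaks -397 bp at Zic4, and no centring 167 bp at Zic1. The cause of these reversals was not tested.

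Genes called for covered length ranged from 0 to 473 and regions called for height rank from 0 to 708 when 1 library was left out. The higher counts were 468 and 473 without H3K9cr replicate 1 or 2, and 708 without H3K9ac replicate 2, with 1 library in an arm. Other settings called 0. The replicate block also called 0 genes and 0 regions, with 1640 genes at an unadjusted p under 0.05 against 1264 without it. Libraries with the same number deviated together with a correlation of 0.127 for covered length and 0.0241 for height rank. The pairing in that block rests on the replicate number alone, since the labels give no other ground for it. Unknown read depth limits every statement on width and on absent peaks.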
